A study of Mus musculus with 19 samples.

Results

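NF-kB is a family of transcription factors built from 5 subunits, and the 5 genes described here encode them in the mouse: Rel (c-Rel), Rela (p65), Relb (RelB), Nfkb1 (p105, the precursor of p50) and Nfkb2 (p100, the precursor of p52). They were taken by gene symbol from the deposited expression tables, which hold 14290 genes for stimulated cells and 14818 for sorted cells, and all 5 were present and passed the filter on low values in both. The cells were regulatory T cells (Tregs), CD4 T cells that restrain immune responses, collected as YFP-positive cells from C57Bl/6 mice carrying Foxp3-CRE-YFP. In this strain the Foxp3 locus drives Cre recombinase and a yellow fluorescent protein, so every group, the wild-type (WT) controls included, carries the Cre allele. Deletion of a floxed gene is thereby directed to cells that express Foxp3, and how strictly it was limited to them was not tested.

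The stimulated set held 6 libraries of Tregs cultured for 16 hours on 5 ug/mL plate-bound anti-CD3, with 1 ug/mL anti-CD28 and 10 ng/mL interleukin 2. Of these, 2 were WT with the water diluent, 2 were WT with 500 ug/mL pentoxifylline, a phosphodiesterase inhibitor, and 2 were c-Rel-deficient (c-Rel F/F). The sorted set held 13 libraries of uncultured cells from spleen and lymph nodes, sorted by surface markers as resting, CD44-low cells (rTreg) or activated, CD44-high cells (aTreg). It comprised rTregs of WT, p65-deficient (p65 F/F) and c-Rel-deficient (c-Rel F/F) mice with 2 libraries each, 3 libraries of WT aTregs, and 2 libraries each of p65-deficient and c-Rel-deficient aTregs. No label gives the age of the mice or says that replicates came from separate animals, so p-values measure only the spread between these libraries, which may be technical.

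All 5 proteins share the Rel homology domain, which binds DNA and joins the subunits into dimers. Rel, Rela and Relb also carry a domain that activates transcription, whereas p50 and p52 lack one and act with a partner or as repressors. In resting cells dimers are held in the cytoplasm by IkB proteins, and the uncleaved p105 and p100 act as inhibitors of the same kind. The canonical route, downstream of the T cell receptor and CD28, frees dimers of c-Rel, p65 and p50. The non-canonical route, downstream of receptors of the TNF receptor family, processes p100 to p52 and releases RelB-p52. In Tregs c-Rel is known for its part in the thymic development of the lineage.

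Several subunit genes are textbook NF-kB targets themselves, and the stretches just before their starts are shown because they carry the letters that such binding would use. Windows of 250 bases before to 50 bases after each annotated start were taken from RefSeq (GRCm38.p6), which gave entries for 3 members, Rel, Rela and Nfkb2, and none for Relb and Nfkb1. Both strands were searched for the kB consensus, a motif of 10 letters, and overlapping matches were counted. Capitals mark the bases of a match, and each sequence runs 5′ to 3′ on the strand of the gene.

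The 120 bases before the start of Rel, chr11:23770970-23771089, minus strand, held 3 overlapping matches.

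Rel: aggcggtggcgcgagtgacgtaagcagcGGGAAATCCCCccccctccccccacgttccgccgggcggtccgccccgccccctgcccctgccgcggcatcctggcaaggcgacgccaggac

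The 120 bases before the start of Rela, chr19:5637421-5637540, plus strand, held 0 matches.

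Rela: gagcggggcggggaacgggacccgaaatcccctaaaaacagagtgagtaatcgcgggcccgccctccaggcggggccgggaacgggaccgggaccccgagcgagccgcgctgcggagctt

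The 120 bases before the first start of Nfkb2, chr19:46304617-46304736, plus strand, held 4 matches at 2 separate places.

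Nfkb2, first start: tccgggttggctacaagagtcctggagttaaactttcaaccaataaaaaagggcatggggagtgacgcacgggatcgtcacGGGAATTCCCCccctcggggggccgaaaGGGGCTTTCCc

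The windows of the other Nfkb2 starts held matches at 2 further places, at chr19:46305459-46305468 on the minus strand and at chr19:46305705-46305714, where these windows overlap. The latter is shown in 60 bases, chr19:46305680-46305739, plus strand.

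Nfkb2, later start: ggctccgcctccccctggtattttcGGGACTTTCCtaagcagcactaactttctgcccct

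The kB consensus occurred in 8.46% of all 32851 windows in the table, and in at least 1 window of 9.55% of 27025 genes. A match describes letters only and does not show that a factor binds there.

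RPKM, the deposited unit, is the number of reads per kilobase of transcript, scaled to the total of the library, so it can be compared between genes within a set. The deposited values of the sorted set had been adjusted further by the authors and include values below 0, so levels are compared within each set and not between the sets. Relative depth could be read from the stimulated set, where the other libraries had between 0.682 and 0.949 of the reads of WT water 1, but not from the sorted set. In this bulk RNA, fewer cells of a type and less RNA per cell cannot be told apart. Foxp3 was present in all 19 libraries, at 28.1 RPKM or more, with the lowest value in c-Rel-deficient rTreg 2. Its pair, c-Rel-deficient rTreg 1, had 73.6 RPKM. The Treg genes Il2ra, Ctla4 and Ikzf2 were also lower in c-Rel-deficient rTreg 2, at 65.5, 108 and 4.35 RPKM against 178, 209 and 43.2 RPKM. In stimulated cells Foxp3 was at 107 and 193 RPKM in c-Rel-deficient 1 and 2, against 290 and 237 RPKM with water. The part of these differences in the results was not tested. The activation markers Cd44, Icos, Klrg1, Itgae and Tigit summed to between 83.3 and 165 RPKM in the rTreg libraries. The rTregs differed by replicate number in every genotype. In WT, p65-deficient and c-Rel-deficient rTregs these markers summed to 156, 161 and 165 RPKM in library 1. In library 2 they summed to 84.9, 84.9 and 83.3 RPKM. In aTregs they summed to 688, 686 and 391 RPKM in WT 1, 2 and 3, 548 and 660 RPKM in p65-deficient 1 and 2, and 452 and 353 RPKM in c-Rel-deficient 2 and 3. The aTreg libraries thus differed in their activation markers too, and WT aTreg 3 had the lowest sum among WT aTregs.

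Nfkb1 was the most abundant of the 5 transcripts in stimulated cells. It was at 252 and 302 RPKM in the WT water libraries, 196 and 210 RPKM with pentoxifylline, and 323 and 298 RPKM in c-Rel-deficient Tregs. Both pentoxifylline libraries lay below the others, while the WT water and c-Rel-deficient libraries overlapped. Nfkb2 was next in order at 114 and 122 RPKM with water. It was 105 and 107 RPKM with pentoxifylline and 119 and 124 RPKM without c-Rel. Its pentoxifylline libraries lay just below the others, and all 6 libraries were close together. Among the subunits that activate transcription, Rela was at 83.7 and 92.1 RPKM with water, 91.0 and 85.6 RPKM with pentoxifylline, and 109 and 97.1 RPKM without c-Rel. Relb was at 53.4 and 58.8 RPKM with water, 65.7 and 54.9 RPKM with pentoxifylline, and 104 and 75.9 RPKM without c-Rel. For both of these genes the c-Rel-deficient libraries lay above all WT libraries, and the WT groups overlapped.

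Rel was at 55.1 and 55.8 RPKM with water and at 93.5 and 79.9 RPKM with pentoxifylline. In the libraries labelled c-Rel-deficient it was 2.44 RPKM in the first and 25.0 RPKM in the second. The second thus retained a level between the first and the WT libraries, and the log2 differences from WT cells are given below with and without it. The c-Rel-deficient libraries also differed in the activation markers, which summed to 423 RPKM in the first and 740 RPKM in the second, against 833 and 812 RPKM with water. The part of this difference in the results was not tested.

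**Figure D1:**
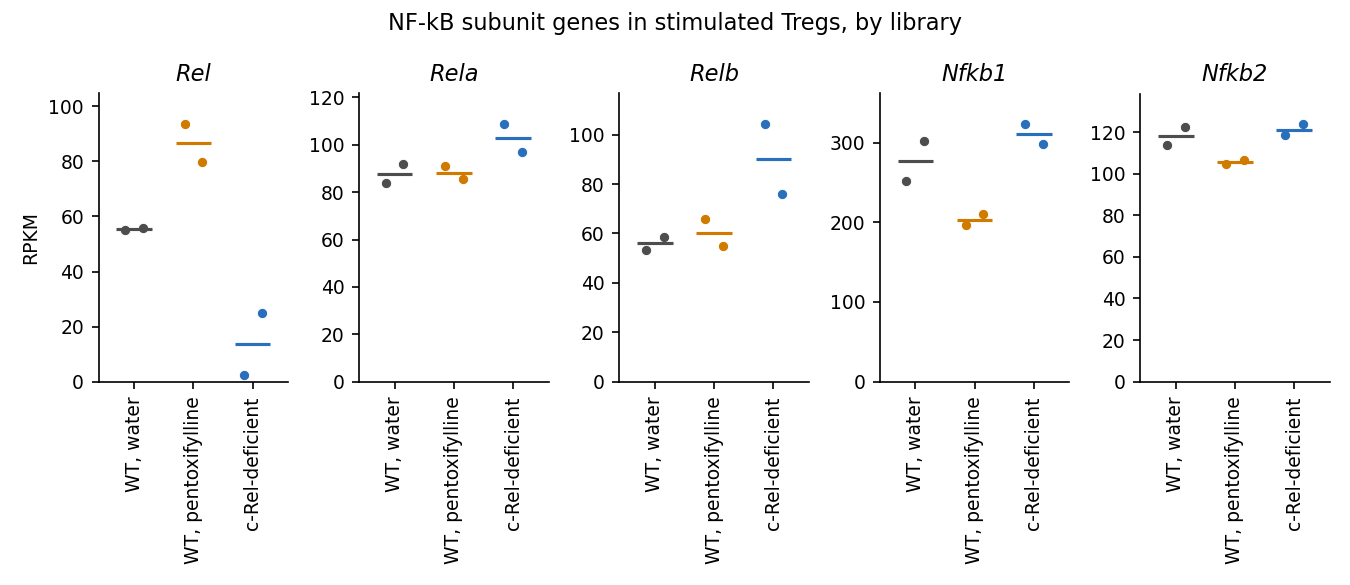
RPKM of the 5 genes (1 panel each, vertical axes from 0 and scaled separately) in the 6 libraries of stimulated Tregs. Points are libraries and lines are group means of 2 libraries. Nfkb1 is lowest with pentoxifylline, Rel highest with it, and the 2 c-Rel-deficient libraries lie far apart for Rel, at 2.44 and 25.0 RPKM.

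By group means, Nfkb1 and Rela had the highest levels of the family in sorted cells and Rel the lowest. Nfkb1 was at 70.3 and 82.7 RPKM in WT rTregs and 80.9, 98.7 and 86.4 RPKM in WT aTregs. It was 74.0 and 66.2 RPKM in p65-deficient rTregs, 72.6 and 67.2 RPKM in c-Rel-deficient rTregs, 72.4 and 79.1 RPKM in p65-deficient aTregs, and 85.3 and 78.5 RPKM in c-Rel-deficient aTregs. Ordered by their means, all neighbouring groups overlapped for Nfkb1. Rela was at 71.5 and 69.0 RPKM in WT rTregs and 68.3, 62.3 and 64.2 RPKM in WT aTregs, so each WT rTreg library lay above each WT aTreg library. In c-Rel-deficient cells Rela was 70.8 and 71.6 RPKM in rTregs and 65.5 and 65.8 RPKM in aTregs, again without overlap. In p65-deficient cells it was 69.4 and 59.9 RPKM in rTregs and 46.8 and 56.1 RPKM in aTregs. The p65-deficient aTregs thus had the lowest Rela levels of all, but kept most of the transcript.

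Nfkb2 was at 23.4 and 31.5 RPKM in WT rTregs and 49.7, 49.7 and 33.3 RPKM in WT aTregs. In p65-deficient cells it was 21.4 and 18.4 RPKM in rTregs and 34.7 and 34.2 RPKM in aTregs. In c-Rel-deficient cells it was 42.1 and 24.6 RPKM in rTregs and 47.0 and 38.2 RPKM in aTregs. The aTregs lay above the rTregs in WT and p65-deficient cells and overlapped them in c-Rel-deficient cells. Relb, the partner of p52, was at 26.5 and 21.9 RPKM in WT rTregs and 37.8, 34.5 and 20.8 RPKM in WT aTregs. In p65-deficient cells Relb was 14.4 and 14.5 RPKM in rTregs and 18.8 and 19.7 RPKM in aTregs. In c-Rel-deficient cells it was 30.7 and 22.4 RPKM in rTregs and 38.4 and 33.3 RPKM in aTregs. All 4 p65-deficient libraries lay below all other sorted libraries for Relb, and the remaining groups overlapped their neighbours in the order of means. WT aTreg 3 had the lowest Relb and Nfkb2 of the 3 WT aTreg libraries.

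Rel was at 10.9 and 20.5 RPKM in WT rTregs and 18.6, 21.3 and 22.0 RPKM in WT aTregs. In p65-deficient cells it was 11.1 and 13.8 RPKM in rTregs and 15.9 and 17.5 RPKM in aTregs. In c-Rel-deficient cells it was 5.37 and 1.39 RPKM in rTregs and 1.56 and 3.01 RPKM in aTregs. The 4 c-Rel-deficient libraries lay below all the others.

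**Figure D2:**
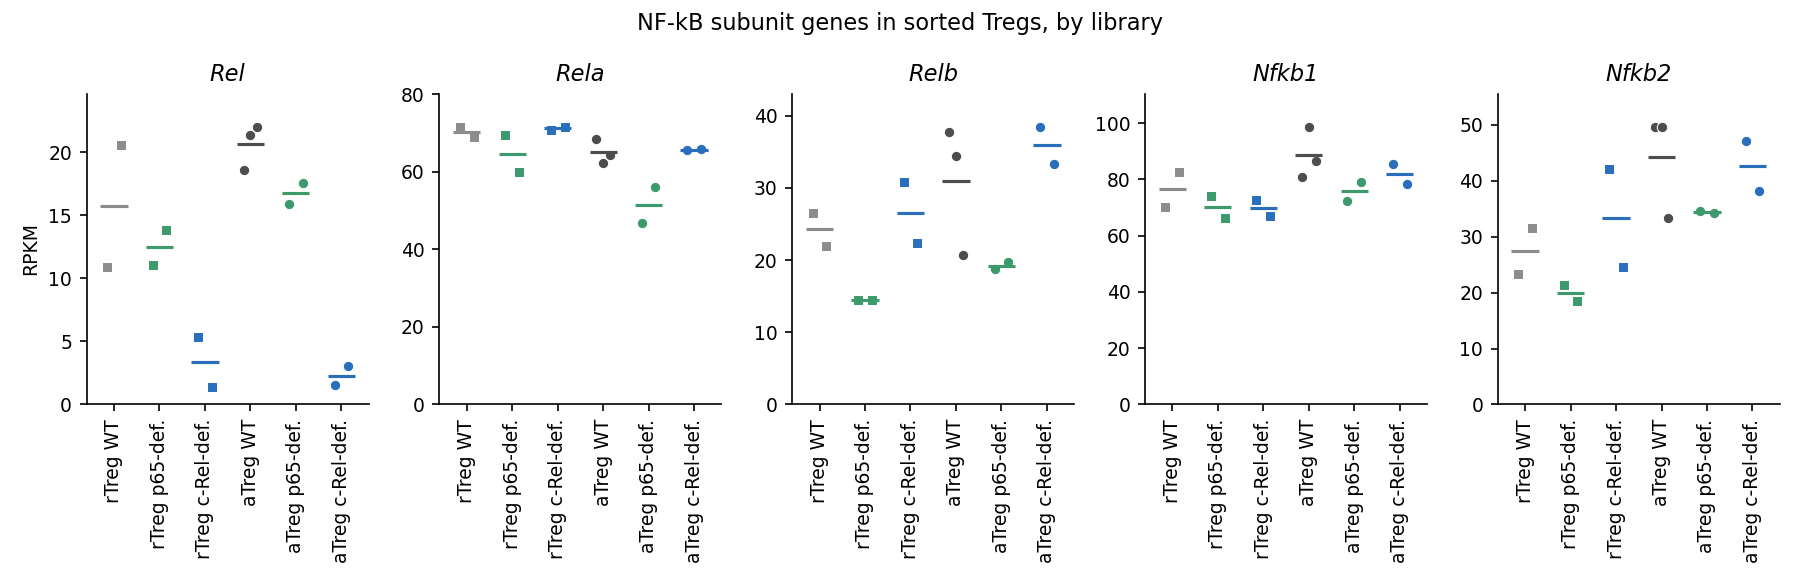
Adjusted RPKM of the 5 genes (1 panel each, vertical axes from 0 and scaled separately) in the 13 libraries of sorted Tregs; squares are rTreg libraries, circles aTreg libraries and lines group means of 2 or 3 libraries. Relb is lowest in the 4 p65-deficient libraries, between 14.4 and 19.7 RPKM, and Rel in the 4 c-Rel-deficient libraries, between 1.39 and 5.37 RPKM.

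The composition of the family differed between resting and activated cells. Of the summed RPKM of the 5 genes, Rela made up 34.5% in rTregs and 27.0% in aTregs, averaged over the 3 genotypes, a difference of -7.55 percentage points. Its share was between 30.6% and 38.3% in the 6 rTreg libraries and between 23.4% and 30.1% in the 7 aTreg libraries, with no overlap. Nfkb2 made up 13.3% in rTregs and 17.9% in aTregs, a difference of 4.64 points, with ranges of 10.7% to 19.0% and 14.7% to 19.8% that overlapped. The shares of Relb, Rel and Nfkb1 differed by 1.81, 0.69 and 0.41 points. Single libraries had a within-group SD of 1.89, 1.42 and 2.09 points, which is not the error of these mean differences. In stimulated cells Nfkb1 held 46.5% ± 1.88 with water, 37.3% ± 2.49 with pentoxifylline and 48.6% ± 0.733 without c-Rel (SD, n = 2 each). Rel held 9.35% ± 0.718 with water, 15.9% ± 1.48 with pentoxifylline and 2.20% ± 2.58 without c-Rel (0.371% and 4.03% in the first and second library). The sum of the 5 genes itself was 594 RPKM with water, 544 RPKM with pentoxifylline and 638 RPKM without c-Rel, and group means in sorted cells ran from 181 RPKM in p65-deficient rTregs to 249 RPKM in WT aTregs. Shares of a sum are tied to each other, since a lower share of 1 gene raises the others, and no test was made on them.

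**Figure D3:**
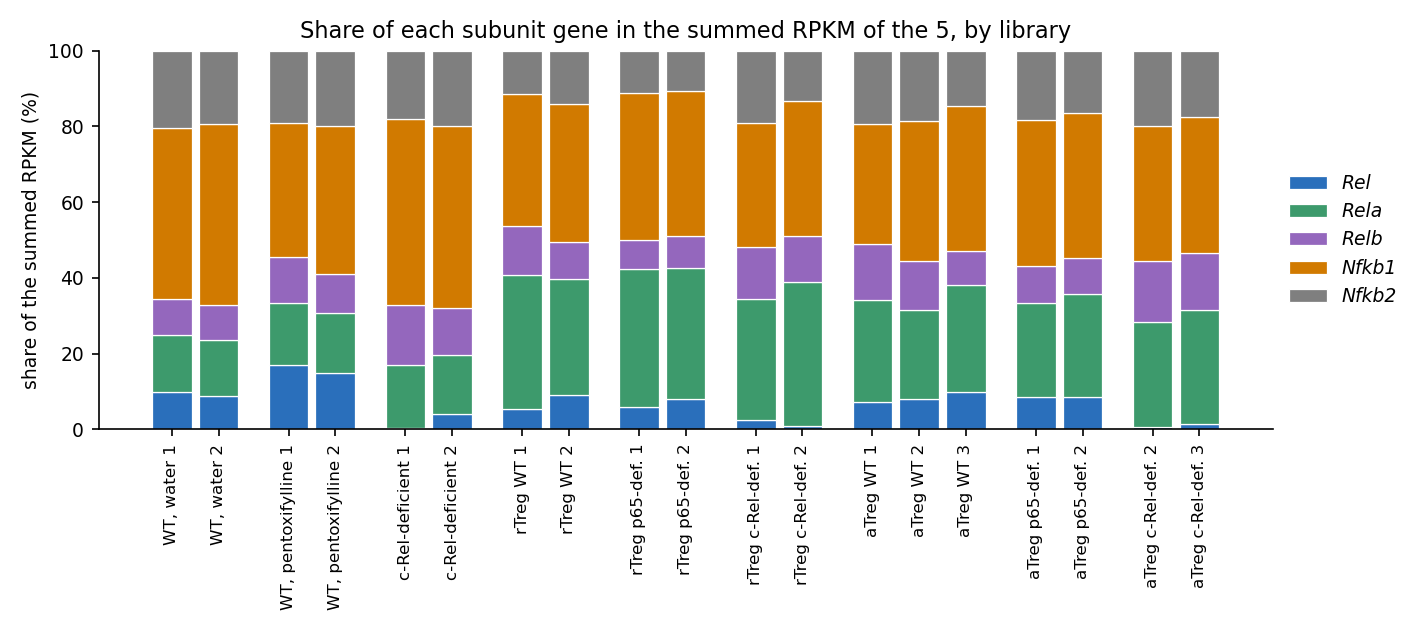
Share of each subunit gene in the summed RPKM of the 5, in percent, with 1 stacked bar per library for the 6 stimulated and 13 sorted libraries. The Rela share is between 23.4% and 30.1% in aTreg bars and between 30.6% and 38.3% in rTreg bars, and Rel nearly vanishes from the c-Rel-deficient bars apart from the second stimulated one.

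Differences between groups were tested on log2(RPKM + 0.5) in limma, a linear model that pools the spread over groups and genes. Each p was adjusted for all genes tested by the Benjamini-Hochberg method, and an adjusted p below 0.05 is called a change. A log2 difference of 1 is a doubling on this scale.

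The first comparison asked whether pentoxifylline, which the study used as a chemical inhibitor of NF-kB subunits, altered the subunit transcripts themselves. None of the 5 changed with the drug in limma, although 43.5% of the 9945 genes tested did. Nfkb1 came nearest, with a log2 difference of -0.44 (SE 0.16, adjusted p = 0.0628), from 277 ± 35.0 to 203 ± 9.86 RPKM (SD, n = 2 each). Rel had a log2 difference of 0.64 (SE 0.83, adjusted p = 0.561). Its SE is wide because limma takes the spread of Rel from all 3 stimulated groups, the discordant c-Rel-deficient libraries included. Fitted to the WT libraries alone, the same difference had an adjusted p of 0.0154 in limma. In the authors' deposited table Rel had a log2 fold change of 0.62 with an adjusted p of 0.0248, and it was the 1 member among the 22.7% of genes called there. The values of Nfkb2 and Rela differed by -0.16 (95% interval -0.46 to 0.14) and 0.01 (-0.31 to 0.33), and that of Relb by 0.10 (-0.33 to 0.53). The libraries did not overlap for 3 of 5 members, Rel, Nfkb1 and Nfkb2, against 75.5% of all genes tested.

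Other genes of the pathway were called with the drug, to be read against the 43.5% of all genes called. Of 7 genes of the IkB family, which hold NF-kB dimers or modify them in the nucleus, 1 rose and 3 fell: Nfkbil1 by 0.66, and Nfkbid, Nfkbib and Bcl3 by -1.54, -0.68 and -0.67 in log2. Of 12 upstream kinases and adaptors tested, 3 rose and 0 fell, among them Birc2, a ubiquitin ligase of the non-canonical route (0.87), and Map3k14, the kinase NIK of the same route (0.83). Among the 4 negative feedback genes tested, Tnfaip3, which encodes the deubiquitinase A20, rose by 2.66 and Tnip2 fell by 0.89. Of 18 widely used target genes, 2 rose and 10 fell, with a median log2 difference of -0.98 against 0.00 over all genes. The falls included the chemokine gene Ccl22 (-4.28), Tnf (-3.18), Myc (-2.40) and Irf4 (-2.10). Of 9 marker genes of B cells 7 were in the table, and they summed to 75.3 and 87.8 RPKM with water and 47.5 and 40.6 RPKM with pentoxifylline, and their part in the differences above was not tested.

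Loss of c-Rel in stimulated cells was compared with WT cells given water, the same control libraries as in the drug comparison. Rel itself had a log2 difference of -2.69 (SE 0.83, adjusted p = 0.489 in limma). The wide spread is the gap between the 2 c-Rel-deficient libraries: the log2 difference of Rel was -4.25 without the second library and -1.14 with it alone. In Foxp3 and the summed activation markers the first library lay further from the water libraries than the second. Among the other subunits Relb was highest above WT, with a log2 difference of 0.66 (SE 0.18, unadjusted p = 0.0083, adjusted p = 0.444), or 0.89 (adjusted p = 0.0721) without the second library and 0.43 with it alone. In the authors' deposited table Rel had a log2 fold change of -3.38 (adjusted p = 2.9e-45) and Relb one of 0.79 (adjusted p = 0.0228), so that 2 of 5 members were called against 2.14% of all genes. In limma 0 members were called, as were 0% of all genes, while 791 genes and 2 members, Rel and Relb, had an unadjusted p below 0.05. Without the second library limma called 284 genes, with Rel as the 1 member. The log2 differences of Rela, Nfkb1 and Nfkb2 were 0.23 (95% interval -0.09 to 0.54), 0.17 (-0.21 to 0.55) and 0.04 (-0.26 to 0.34), and without the second library they were 0.31, 0.23 and 0.01. Libraries did not overlap for 3 of 5 members, Rel, Rela and Relb, against 40.5% of all genes. No gene of the pathway lists passed the test, with medians of 0.13 for the IkB family and -0.36 for the targets, against 0.06 over all genes. The B cell markers summed to 36.7 and 42.6 RPKM without c-Rel, below both water libraries as with pentoxifylline. The 9 markers of dendritic and myeloid cells summed to 4.21 and 6.397 RPKM without c-Rel, 11.3 and 13.3 RPKM with water and 13.5 and 16.5 RPKM with pentoxifylline. The higher sum with pentoxifylline came from Zbtb46, at 9.07 to 10.4 RPKM against 4.09 to 4.45 RPKM with water. Itgax, Flt3, Csf1r, Cd68 and Xcr1 were lower with the drug, and Lyz2, Itgam and Siglech overlapped. The part of other cells in the subunit levels was not tested here either.

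Pentoxifylline and loss of c-Rel were also set directly against each other. In limma 3 of 5 members were called between the pentoxifylline and the c-Rel-deficient libraries, where 48.4% of all genes were called. Rel was higher with the drug by 3.33 in log2 (SE 0.83, adjusted p = 0.0141). This difference of Rel was 4.89 (adjusted p = 0.0001319 in limma) without c-Rel-deficient 2 and 1.77 (adjusted p = 0.0016) without c-Rel-deficient 1. Nfkb1 was lower with the drug, with a log2 difference of -0.61 (SE 0.16, adjusted p = 0.0188), and so was Relb, with -0.56 (SE 0.18, adjusted p = 0.0394). The Relb call rested on c-Rel-deficient 1: without it the difference was -0.33 with an adjusted p of 0.230 in limma, and without c-Rel-deficient 2 it was -0.79 with an adjusted p of 0.0187. Leaving out either pentoxifylline library also ended the calls of Relb (adjusted p = 0.0607 and 0.171) and Nfkb1 (adjusted p = 0.112 and 0.0612). For Nfkb1 leaving out either c-Rel-deficient library did so as well (adjusted p = 0.1003 and 0.053), and for Rel leaving out pentoxifylline 1 did (adjusted p = 0.0616). All 5 members were without overlap between these groups, against 77.5% of all genes.

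In sorted cells the comparison of p65-deficient with WT Tregs asked which genes depend on p65 in resting and in activated Tregs. Relb was the subunit that differed most. Its mean was 14.4 ± 0.0371 RPKM in p65-deficient and 24.2 ± 3.26 RPKM in WT rTregs (SD, n = 2 each), a log2 difference of -0.72 (SE 0.25, unadjusted p = 0.016, adjusted p = 0.671 in limma). In aTregs it was 19.2 ± 0.604 RPKM (SD, n = 2) against 31.0 ± 9.02 RPKM (SD, n = 3), a log2 difference of -0.63 (SE 0.23, unadjusted p = 0.020, adjusted p = 0.998 in limma). The difference of these effects between subsets was 0.09 (SE 0.34), with an adjusted p of 0.998. Averaged over the subsets the Relb difference was -0.68 in log2 (95% interval -1.05 to -0.30), which ranked 58 of 10656 genes by p (unadjusted p = 0.0025, adjusted p = 0.441 in limma). Without WT aTreg 3, which had the lowest Relb and activation markers of its group, the averaged Relb difference was -0.81 (adjusted p = 0.0546 in limma). Leaving out the lowest Relb value of WT aTregs could only enlarge this difference, so that fit adds no support. In the authors' deposited table Relb had a log2 fold change of -1.12 in aTregs (adjusted p = 0.0149), where 1 of 5 members and 0.195% of all genes were called. In rTregs the authors' deposited table gave Relb -0.96 (adjusted p = 0.396), with 0 of 5 members and 0.0337% of all genes called.

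None of the other subunits differed as much without p65. Nfkb2 had log2 differences of -0.44 in rTregs and -0.33 in aTregs, and -0.39 (95% interval -0.79 to 0.02) on average. Nfkb1 differed by -0.17 (-0.38 to 0.03) and Rel by -0.28 (-0.97 to 0.41) on average. Rela, the targeted gene, differed by -0.12 (SE 0.12) in rTregs and -0.34 (SE 0.11) in aTregs, with 64.6 ± 6.69 and 51.4 ± 6.59 RPKM remaining (SD, n = 2 each). RPKM sums reads over the whole gene, and which exons the floxed allele loses is not given in the sources used here, so these values do not check the deletion. All 5 members had averages below 0. In limma 0 of 5 members were called in rTregs, in aTregs and on average, where 0%, 0% and 0.00938% of all genes were called. An unadjusted p below 0.05 was found for 726 genes and 1 member (Relb) in rTregs, for 365 genes and 2 members (Rela and Relb) in aTregs, and for 844 genes and the same 2 members on average. Libraries did not overlap for 2 of 5 members in rTregs, Relb and Nfkb2, against 31.2% of all genes, and for 4 of 5 in aTregs, all except Nfkb2, against 21.6%. Of the pathway lists, all 7 IkB family genes were below 0 on average (median -0.23), as were 13 of 17 targets (median -0.29), against a median of -0.02 over all genes, and 0 of them passed the test. This was not particular to p65. Averaged loss of c-Rel, against the same WT libraries, also had all 7 IkB family genes below 0 (median -0.09). So were 14 of 17 targets there (median -0.32), against a median of 0.00 over all genes.

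**Figure D4:**
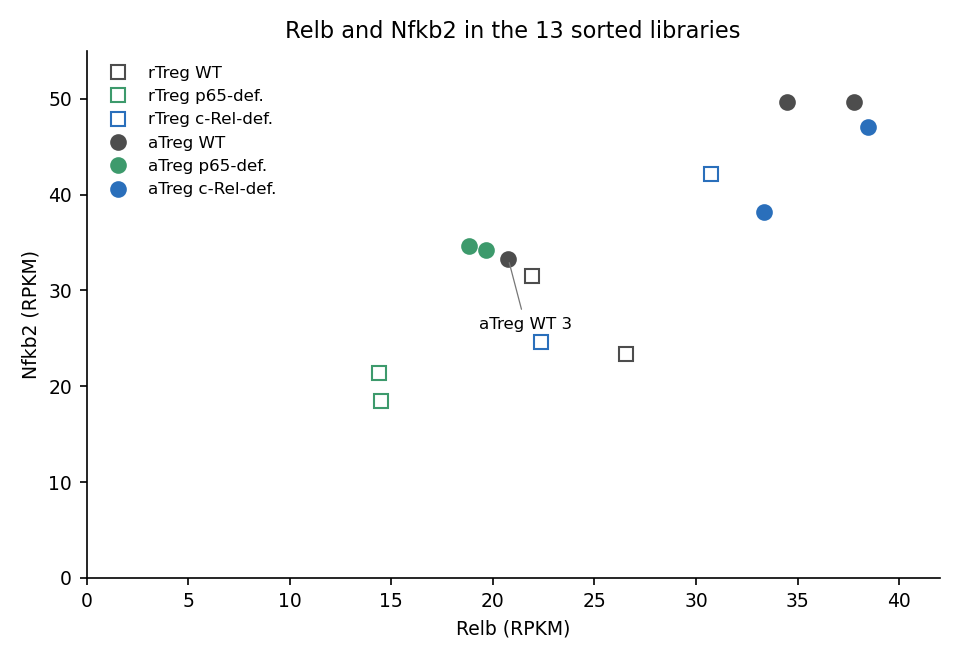
Relb against Nfkb2 in adjusted RPKM, with 1 point per sorted library; open squares are rTregs and filled circles aTregs, coloured by genotype. The p65-deficient libraries have the lowest Relb values, 14.4 to 19.7 RPKM, and WT aTreg 3 (20.8 and 33.3 RPKM) lies beside the p65-deficient aTregs, away from the other WT aTregs.

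Loss of c-Rel in sorted cells was compared with the same WT libraries as loss of p65. Apart from Rel itself, no subunit differed beyond the spread of the libraries. Rel had log2 differences of -2.22 (SE 0.46) in rTregs and -2.97 (SE 0.42) in aTregs. The average of -2.59 (SE 0.31) ranked first of 10656 genes by p but had an adjusted p of 0.0681 in limma, and it fell below 0.05 without WT aTreg 3 (adjusted p = 0.0437) or either c-Rel-deficient rTreg library (adjusted p = 0.00252 and 0.0212). In the authors' deposited table Rel had log2 fold changes of -2.48 in rTregs (adjusted p = 4.75e-06) and -2.73 in aTregs (adjusted p = 1.52e-09), the 1 member called in each, against 0.027% and 0.519% of all genes. Averaged over subsets, Rela differed by 0.02 (95% interval -0.16 to 0.20), Nfkb1 by -0.12 (-0.32 to 0.09), Nfkb2 by 0.10 (-0.30 to 0.50) and Relb by 0.18 (-0.19 to 0.56). In limma 0 of 5 members were called in rTregs, in aTregs and on average, and 0% of all genes in each. An unadjusted p below 0.05 was found for 775 genes in rTregs, 717 in aTregs and 947 on average, with Rel as the 1 member each time. Libraries did not overlap for 1 of 5 members, Rel, in rTregs and in aTregs, against 26.5% and 25.6% of all genes. The effect of c-Rel loss did not differ detectably between subsets for any member (adjusted p from 0.898 to 0.999 in limma, 0% of genes called), and neither did that of p65 loss (adjusted p from 0.998 to 1.00, 0% called). At an unadjusted p below 0.05 there were 497 and 237 genes for these differences, and 0 members.

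Some markers of other cells were higher in c-Rel-deficient aTregs. Of 9 B cell markers 7 were in the table, and their sum was 326 and 245 RPKM in c-Rel-deficient aTregs against 188, 142 and 31.0 RPKM in WT aTregs and 76.7 and 75.5 RPKM in p65-deficient aTregs. Among rTregs it was 233 and 54.5 RPKM without c-Rel, 72.0 and 63.1 RPKM in WT and 45.0 and 49.1 RPKM without p65. Most of it in c-Rel-deficient aTregs was Cd74, at 203 to 262 RPKM, while the B cell genes Ms4a1 and Pax5 stayed at or below 0.253 RPKM in all sorted libraries. The class II gene H2-Ab1 was at 20.6 to 45.6 RPKM in c-Rel-deficient aTregs and at most 8.24 RPKM in WT aTregs. The 9 dendritic and myeloid markers summed to 18.7 and 10.4 RPKM in c-Rel-deficient aTregs, against 8.93, 6.58 and 4.18 RPKM in WT aTregs. Siglech (2.97 to 4.34 against at most 0.719 RPKM), Itgax, Flt3 and Xcr1 lay above all WT aTregs. Lyz2, Csf1r, Cd68, Itgam and Zbtb46 overlapped WT aTregs, with Zbtb46 reaching lower values. The precision of levels this low is unknown in this set. Relb and Nfkb2 are themselves well expressed in antigen-presenting cells. Of the c-Rel-deficient rTregs, library 1 had the higher B cell sum and the higher Relb (30.7 RPKM) and Nfkb2 (42.1 RPKM). The same held for c-Rel-deficient aTreg 2, and WT aTreg 3 had the lowest sum, Relb and Nfkb2 of its group. Other pairs did not follow this order. WT rTreg 1 had the higher sum but the lower Nfkb2 (23.4 against 31.5 RPKM). With the higher sum, p65-deficient rTreg 2 had the lower Nfkb2 (18.4 against 21.4 RPKM). Likewise p65-deficient aTreg 1 had the lower Relb (18.8 against 19.7 RPKM). The part of other cells in the subunit levels was not tested.

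The direct comparison of p65-deficient with c-Rel-deficient cells gave no called member in either subset, and 0% of all genes in rTregs and 0% in aTregs in limma, while 215 and 634 genes and 3 members in each subset had an unadjusted p below 0.05 (Rel, Relb and Nfkb2 in rTregs, and Rel, Rela and Relb in aTregs). Relb was lower without p65 than without c-Rel by -0.84 (SE 0.25) in rTregs and -0.88 (SE 0.25) in aTregs on the log2 scale, with unadjusted p of 0.0071 and 0.0054 and adjusted p of 1.00 and 0.533 in limma. Rel was higher without p65, by 1.95 and 2.68. Libraries did not overlap for 4 of 5 members in rTregs (30.7% of all genes) and for 4 of 5 in aTregs (36.6% of all genes), Nfkb1 being the exception in both.

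**Figure D5:**
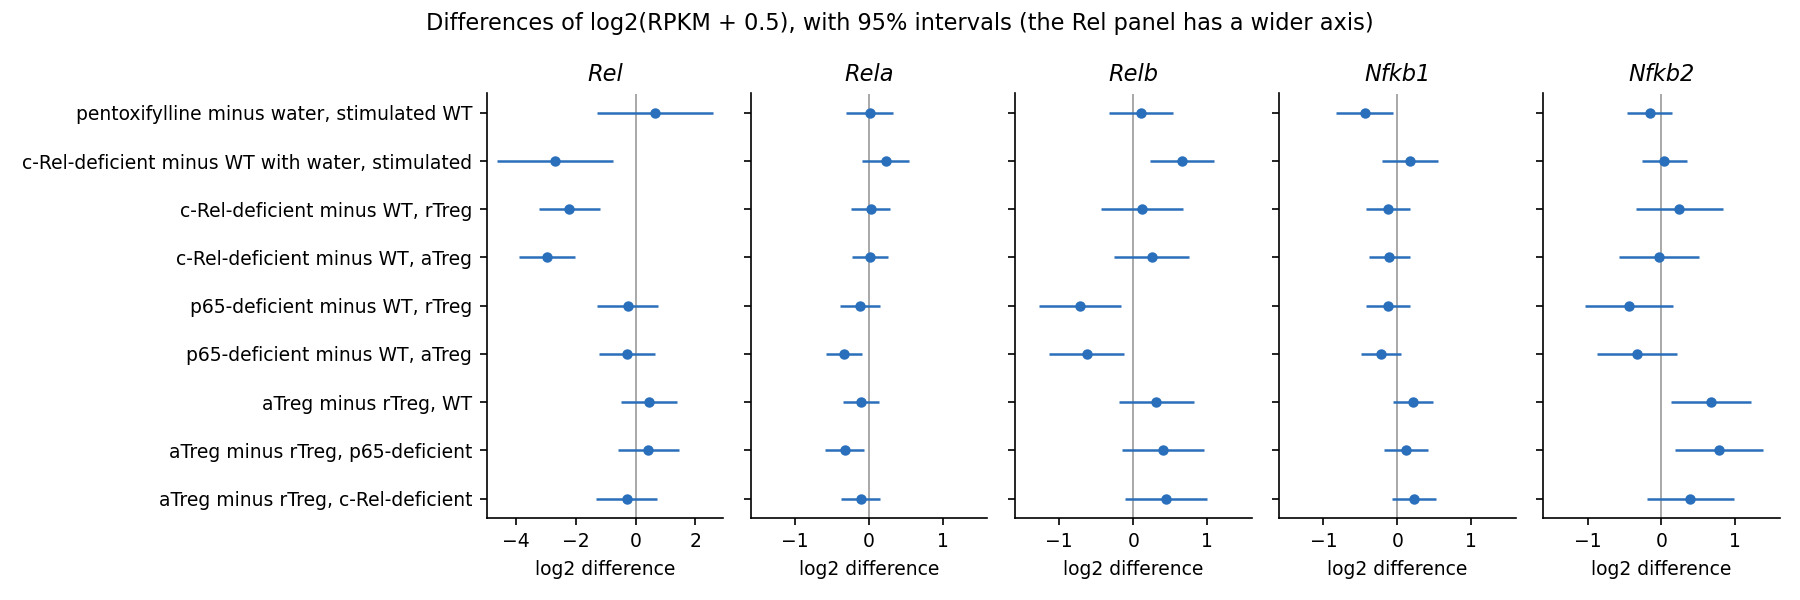
Differences of log2(RPKM + 0.5) from limma (horizontal axis) for the 5 genes (panels) in 9 comparisons (rows), with 95% intervals; the Rel panel has a wider axis. Relb lies at -0.72 and -0.63 for loss of p65, and Nfkb2 between 0.39 and 0.78 for aTregs against rTregs.

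The comparison of activated with resting cells was made within each genotype and as the mean over the 3 genotypes. Nfkb2 rose in aTregs: averaged over genotypes its log2 difference was 0.61 (SE 0.15, adjusted p = 0.0131 in limma), a 1.53-fold increase. It was the 1 member called, where 32.7% of all genes were called and the median over all genes was -0.07. By genotype the Nfkb2 difference was 0.67 in WT, 0.78 in p65-deficient and 0.39 in c-Rel-deficient cells, none with an adjusted p below 0.05 on its own (0.0888, 0.130 and 0.526 in limma). The call held on leaving out each library in turn, with adjusted p between 0.0048 and 0.0457. The members nearest to the threshold were Rela, lower in aTregs with a log2 difference of -0.19 (adjusted p = 0.0563), Relb, with 0.38 (adjusted p = 0.0586), and Nfkb1, with 0.18 (adjusted p = 0.0852). Without WT aTreg 3 Relb passed, at 0.47 with an adjusted p of 0.00433 in limma. That library had the lowest Relb of the WT aTregs, so leaving it out could only raise the difference and adds no support. Rel differed by 0.19 (95% interval -0.39 to 0.76). It was 0.45 and 0.42 higher in aTregs of WT and p65-deficient cells and -0.31 in c-Rel-deficient cells, where little Rel remained.

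In WT cells alone limma called 0 of 5 members, against 12.2% of all genes, and libraries did not overlap for 2 of 5, Rela and Nfkb2, against 40.9%. Without WT aTreg 3 the WT differences of Nfkb2 and Relb were 0.86 and 0.57, with adjusted p of 0.0301 and 0.0331 in limma. Both genes were lowest there among WT aTregs, so leaving that library out could only raise both differences. In the authors' deposited table Nfkb2 had a log2 fold change of 0.95 in WT aTregs against rTregs (adjusted p = 0.028), 1 of 5 members against 11.2% of all genes, and Relb one of 0.71 (adjusted p = 0.0566). In p65-deficient cells 0 of 5 members and 3.17% of all genes were called, and 4 of 5 members, all except Nfkb1, did not overlap, against 64.2% of all genes. In c-Rel-deficient cells 0 of 5 members and 0% of all genes were called, with 1494 genes and 0 members at an unadjusted p below 0.05, and 3 of 5 did not overlap, Rela, Relb and Nfkb1, against 52.0% of all genes.

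Genes elsewhere in the pathway were also called between aTregs and rTregs, against 32.7% of all genes, of which 1766 rose and 1721 fell. Averaged over genotypes, 3 of 7 IkB family genes rose and 0 fell: Nfkbie by 0.43, Nfkbid by 0.37 and Nfkbil1 by 0.25. Of 13 upstream genes 1 rose, the paracaspase gene Malt1 (0.32), and 4 fell, among them Prkcq, the T cell protein kinase C theta (-0.44), and Ikbkb, the kinase IKK beta (-0.35). Of 6 feedback genes tested 1 rose, N4bp1 (0.50), and 0 fell. Of 17 targets 10 rose and 2 fell, with a median of 0.58 against -0.07 over all genes, led by the surface protein gene Cd83 (2.33), the survival genes Bcl2a1d (1.89) and Bcl2a1b (1.34), and Irf4 (1.37). Bcl2a1d and Bcl2a1b are near-identical copies whose reads may have been split between them, so their separate values are uncertain.

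The 5 genes did not follow one pattern across the 13 sorted libraries. Relb and Nfkb2 were most alike among the members, with a Pearson correlation of 0.82 over the 13 libraries. Of the 7891 genes with a mean of at least 5 RPKM, Nfkb2 was number 15 in likeness to Relb. Nfkb1 followed Nfkb2 with 0.73 and Relb with 0.51. Rela followed none of the others, with correlations of -0.35 with Rel, 0.32 with Relb, -0.02 with Nfkb1 and -0.08 with Nfkb2. Without the c-Rel-deficient libraries, over 9 libraries, Rel correlated with Nfkb1 at 0.79 and with Nfkb2 at 0.75. These libraries share genotype, sort and the authors' adjustment, so the values are descriptions.

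The genes of the whole table whose levels ran most like each member over the 13 libraries were as follows. For Relb they were Slc41a3, a magnesium transporter family gene (0.90), the immediate early gene Ier5 (0.88) and the adaptor gene Stap1 (0.87). For Nfkb2 they were Stam2, of endosomal sorting (0.93), Ppp1r16b, a phosphatase regulator (0.93), and Aim2, a sensor of cytosolic DNA (0.92). For Nfkb1 they were Prrc2b (0.93), the transcription factor genes Pou2f2 (0.91) and Nfat5 (0.91). For Rela they were Med26, a Mediator subunit (0.90), the small nucleolar RNA gene Snord53 (0.89) and Pura (0.89). For Rel they were the sorting nexin gene Snx18 (0.89), Accs (0.83) and Ikzf4, which encodes the Treg factor Eos (0.82), and without the c-Rel-deficient libraries Prrc2b (0.90), Creb1 (0.89) and Lnpep (0.88).

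The members lie at separate places in the genome except for a pair on 1 chromosome. By the GENCODE annotation of GRCm38, Rel is at chr11:23736847-23770970 (minus strand), Relb at chr7:19606217-19629438 (minus) and Nfkb1 at chr3:135584655-135691547 (minus). Rela, at chr19:5637483-5648130 (plus), and Nfkb2, at chr19:46304320-46312385 (plus), share chromosome 19 but lie far apart on it, and their levels correlated at -0.08 over the 13 sorted libraries.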

How the data were processed

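RNA of 19 mouse Treg libraries was sequenced, and a table for each set was deposited. Per the file headers it holds the RPKM of every library, together with the log2 fold change and the p-value that the authors obtained in each comparison. The submitters' processing notes name STAR, DESeq2 1.10.1 and mm10. The sorted values are RPKM after an adjustment by the authors that the file headers do not describe: 2.53% lie below 0, the lowest at -30.7, so the precision of low values is unknown there. In 20 and 21 entries of the deposited tables a date stands for the symbol and library values are missing; these were left out.

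Negative values were replaced by 0 and the log2 of each value plus 0.5 was used. A gene entered the test where 2 or more libraries of the set reached 1 RPKM (9945 and 10656 genes). Tests were run in limma 3.58.1 with R 4.3.3 and statmod 1.5.0, using eBayes with a trend, two-sided, over all groups of a set, with p-values adjusted by Benjamini-Hochberg and calls made below 0.05. Deposited p-values were adjusted the same way over each table. The procedure was tested on simulated data. Python 3.11.15, pandas 2.3.3, numpy 2.4.6 and matplotlib 3.10.9 were used.

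In the stimulated set 96.8% of 2282 genes with a mean under 0.1 RPKM showed whole-read steps within 0.02, which gave relative depth. Pathway and marker lists were written from general knowledge; the members and lists were chosen with earlier results of these data known. Pathway genes were named only when called in limma without overlap between libraries where 2 groups were compared, at most 4 per list. Genes alike were the first 3 by Pearson correlation of log2 values. A permutation test of the shares had been planned and was left out, since the members were not chosen independently. Libraries with the same replicate number were checked for pairing: the correlation of their deviations from the group means was -0.07 to 0.40 in the stimulated and -0.49 to 0.44 in the sorted set, so the numbers were not used as pairs. Alternatives were pseudocounts of 0.1 and 1, no filter, a filter of 3 RPKM, scaling by median of ratios, a robust variance, a fit to only the groups compared, a replicate block, shares without Rela, and leaving out each library.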

Additional observations from a re-analysis of the deposited data

How the results depend on the processing

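Counts of called members were small and moved by 1 or 2 under several alternatives. With only the groups compared, 1 member (Rel) was called for pentoxifylline against water and 2 (Nfkb2, Relb) for p65-deficient aTregs against rTregs. Without a filter, 1 member (Rel) was called for c-Rel loss in aTregs, and 2 (Nfkb2, Rela) for the mean of aTregs against rTregs. Median-of-ratios scaling called 3 there (Nfkb2, Relb, Nfkb1). A pseudocount of 1 called 1 (Rel) for c-Rel loss averaged over subsets. A replicate block assumes a pairing by number, which was seen in the activation markers of rTregs but not consistently in the correlations of deviations. It called 1 member each for c-Rel loss in aTregs (Rel), p65 against c-Rel loss in aTregs (Relb) and c-Rel loss averaged (Rel). For aTregs against rTregs it called 1 in WT (Nfkb2), 1 in c-Rel-deficient cells (Relb) and 2 for the mean (Nfkb2, Relb). Leaving out each library in turn gave 0 to 1 called members for pentoxifylline against water, for stimulated c-Rel loss and for averaged c-Rel loss, 0 to 2 for pentoxifylline against c-Rel loss, where 3 were called with all libraries, 0 to 2 for aTregs against rTregs in WT, and 1 to 3 for their mean. Where a group kept 1 library, that library was assumed to vary like the other groups. The Relb call between pentoxifylline and c-Rel loss was also lost without a filter (adjusted p = 0.067 in limma) and with only the groups compared (adjusted p = 0.0511). With Rela left out of the sum, the Nfkb1 share differed by -5.27 points between aTregs and rTregs instead of 0.41. No called difference changed sign. The depth of the sorted libraries is unknown, which limits what can be said of Rel in c-Rel-deficient cells.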
